A study of Mus musculus with 40 samples.

Results

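Purkinje cells are the output neurons of the cerebellar cortex, and 8 genes used as their markers were followed here: Pcp2, Pcp4, Calb1, Itpr1, Grid2ip, Slc1a6, Rora and Homer3. A probe was taken when the gene name printed for it on the array equalled one of these symbols. This gave 10 probes for the 8 genes, out of 55589 probes carrying 36362 gene names. Calb1 and Homer3 each had 2 probes, and the brighter one stands for the gene. RNA of mouse cerebral cortex and cerebellum had been hybridised to 40 one-colour Agilent arrays, 4 mice in each of 10 groups, all on the C57Bl/6 background. Wild-type mice were 2 or 29 months old on a normal diet with 36 mg of α-tocopherol (vitamin E) per kg, or 29 months old on an α-tocopherol-deficient diet. Ttpa-/- mice, which lack the α-tocopherol transfer protein, were 29 months old and had been fed the deficient diet or a supplemented diet with 600 mg per kg. There were no Ttpa-/- mice on the normal diet, no supplemented wild-type mice and no young Ttpa-/- mice. The tissue was bulk cortex or cerebellum, so that in cerebellum fewer Purkinje cells and less RNA in each cell cannot be told apart. Purkinje cells belong to the cerebellum, so that values of these genes in cerebral cortex are not values of Purkinje cells.

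Purkinje cells receive excitatory input from parallel fibres and climbing fibres and are the sole output of the cerebellar cortex, with GABA as their transmitter. At the parallel fibre synapse, glutamate acts on a metabotropic receptor, which through a phospholipase C raises inositol trisphosphate and opens the calcium channel that Itpr1 encodes. Calb1 encodes the calcium buffer calbindin and Pcp4 a small calmodulin-binding protein. Homer3 encodes a scaffold that links metabotropic receptors to this calcium store, and Grid2ip (delphilin) is a scaffold protein of the same synapse. Slc1a6 encodes EAAT4, a glutamate transporter of Purkinje cells, and Pcp2 a regulator of G proteins that is a standard marker of the cell. Rora encodes the nuclear receptor RORα, which Purkinje cells need to mature and which is lost in the staggerer mouse.

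The probes lie, in mm9 coordinates, at chr9:69226774-69226833 (Rora), chr8:3623377-3623436 (Pcp2), chr4:15835078-15835137 (Calb1), chr16:96747241-96747300 (Pcp4), chr6:108501025-108501084 (Itpr1), chr10:78277447-78277506 (Slc1a6), chr5:144153417-144153476 (Grid2ip) and chr8:72817724-72817783 (Homer3). RORα binds DNA at an AGGTCA half-site, so promoter windows of 5 members are printed with this motif, searched on both strands as AGGTCA or TGACCT, in capitals. Each window runs from 250 bases before to 50 bases after an annotated start site (RefSeq, GRCm38.p6) and is written 5′ to 3′ along the gene. Pcp2, Pcp4 and Homer3 are shown because a window of theirs holds the motif, and Slc1a6 and Rora because theirs do not.
Pcp2: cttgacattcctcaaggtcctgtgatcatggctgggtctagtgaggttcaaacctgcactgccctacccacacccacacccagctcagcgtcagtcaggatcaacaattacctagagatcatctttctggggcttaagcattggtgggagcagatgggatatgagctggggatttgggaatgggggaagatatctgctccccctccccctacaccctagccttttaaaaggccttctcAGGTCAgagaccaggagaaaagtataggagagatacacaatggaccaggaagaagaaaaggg
Pcp4: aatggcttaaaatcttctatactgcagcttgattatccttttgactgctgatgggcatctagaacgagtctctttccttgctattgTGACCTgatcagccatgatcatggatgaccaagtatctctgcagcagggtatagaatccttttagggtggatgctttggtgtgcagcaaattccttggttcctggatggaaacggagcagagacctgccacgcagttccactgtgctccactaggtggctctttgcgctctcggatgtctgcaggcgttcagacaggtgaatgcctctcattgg
Homer3: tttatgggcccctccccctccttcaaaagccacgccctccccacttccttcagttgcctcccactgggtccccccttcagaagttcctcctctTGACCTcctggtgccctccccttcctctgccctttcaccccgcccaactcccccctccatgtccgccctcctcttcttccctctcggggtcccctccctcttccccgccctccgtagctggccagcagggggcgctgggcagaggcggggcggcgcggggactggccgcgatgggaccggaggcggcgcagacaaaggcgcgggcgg
Slc1a6: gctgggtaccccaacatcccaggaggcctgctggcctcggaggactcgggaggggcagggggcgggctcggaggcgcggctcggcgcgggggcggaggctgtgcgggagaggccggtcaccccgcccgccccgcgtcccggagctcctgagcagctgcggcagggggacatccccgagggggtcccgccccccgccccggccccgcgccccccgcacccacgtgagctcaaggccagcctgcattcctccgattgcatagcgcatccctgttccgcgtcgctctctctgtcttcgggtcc
Rora: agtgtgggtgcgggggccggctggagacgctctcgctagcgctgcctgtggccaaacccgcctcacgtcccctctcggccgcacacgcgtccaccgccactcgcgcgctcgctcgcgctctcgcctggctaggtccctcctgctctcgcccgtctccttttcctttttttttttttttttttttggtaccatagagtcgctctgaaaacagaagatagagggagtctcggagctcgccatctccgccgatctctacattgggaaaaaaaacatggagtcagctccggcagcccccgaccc
The Pcp2 window is chr8:3625498-3625797 on the minus strand, and its copy of the motif begins at position -12 from the start site. The other windows are on the plus strand, at chr16:96467356-96467655 for Pcp4 with the motif at -164, chr8:70282749-70283048 for Homer3 with the motif at -157, chr10:78780246-78780545 for Slc1a6 and chr9:68653536-68653835 for Rora. Over all 10 windows of the 6 members in the table, the motif was present in 5 windows of 3 genes, and 2 of the 3 Pcp2 windows that hold it overlap and share 1 copy. It was present in 16.3% of 32851 promoter windows and in at least one window of 18.1% of 27025 genes. Calb1 and Itpr1 were not matched. A match of these letters is a description of the window and not a site of binding.

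Signals are given as the log2 of the processed signal minus the 75th percentile of that array, which ranged from 365.1 to 925.1 over the 40 arrays, and 51.4% to 61.4% of probes per array were flagged as well above background. The 8 members were well above background on all 40 arrays, and the number of arrays, 4 in a group, limits the precision. Gabra6, a receptor subunit of cerebellar granule cells, was well above background on all cerebellar arrays and on 0 of 20 cortical arrays. The brighter Ttpa probe was well above background on 4 of 4 cerebellar arrays in each wild-type group, on 0 of 4 of the Ttpa-/- deficient group and on 1 of 4 of the Ttpa-/- supplemented group. In cortex it was near background in both genotypes and checks nothing there. Arrays stood apart in several groups. Ttr, a choroid plexus transcript, was at 7.78, 4.64, 2.55 and 1.19 in the young cerebellum and between -5.66 and -2.63 in the aged wild-type cerebellum on the normal diet, where 1 array was not well above background. In wild-type cortex on the normal diet Ttr was at 6.90, 6.71, 6.81 and 0.76 at 2 months. At 29 months it was at 6.49, 5.56, 7.07 and 1.72 there. In the cortex of deficient Ttpa-/- mice Ttr was at 3.44, 7.36, 7.29 and 7.36. The part of choroid plexus tissue in the cortical values of the members was not tested. Replicate 4 of the Ttpa-/- deficient group stood apart for Car8, described below. The 40 arrays lay on 5 slides of 8, each slide holding 2 groups. Ageing in cortex, the deficient diet in wild-type cerebellum and the diet of Ttpa-/- cerebellum were compared within a slide. In the other comparisons slide and condition cannot be told apart.

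**Figure D1:**
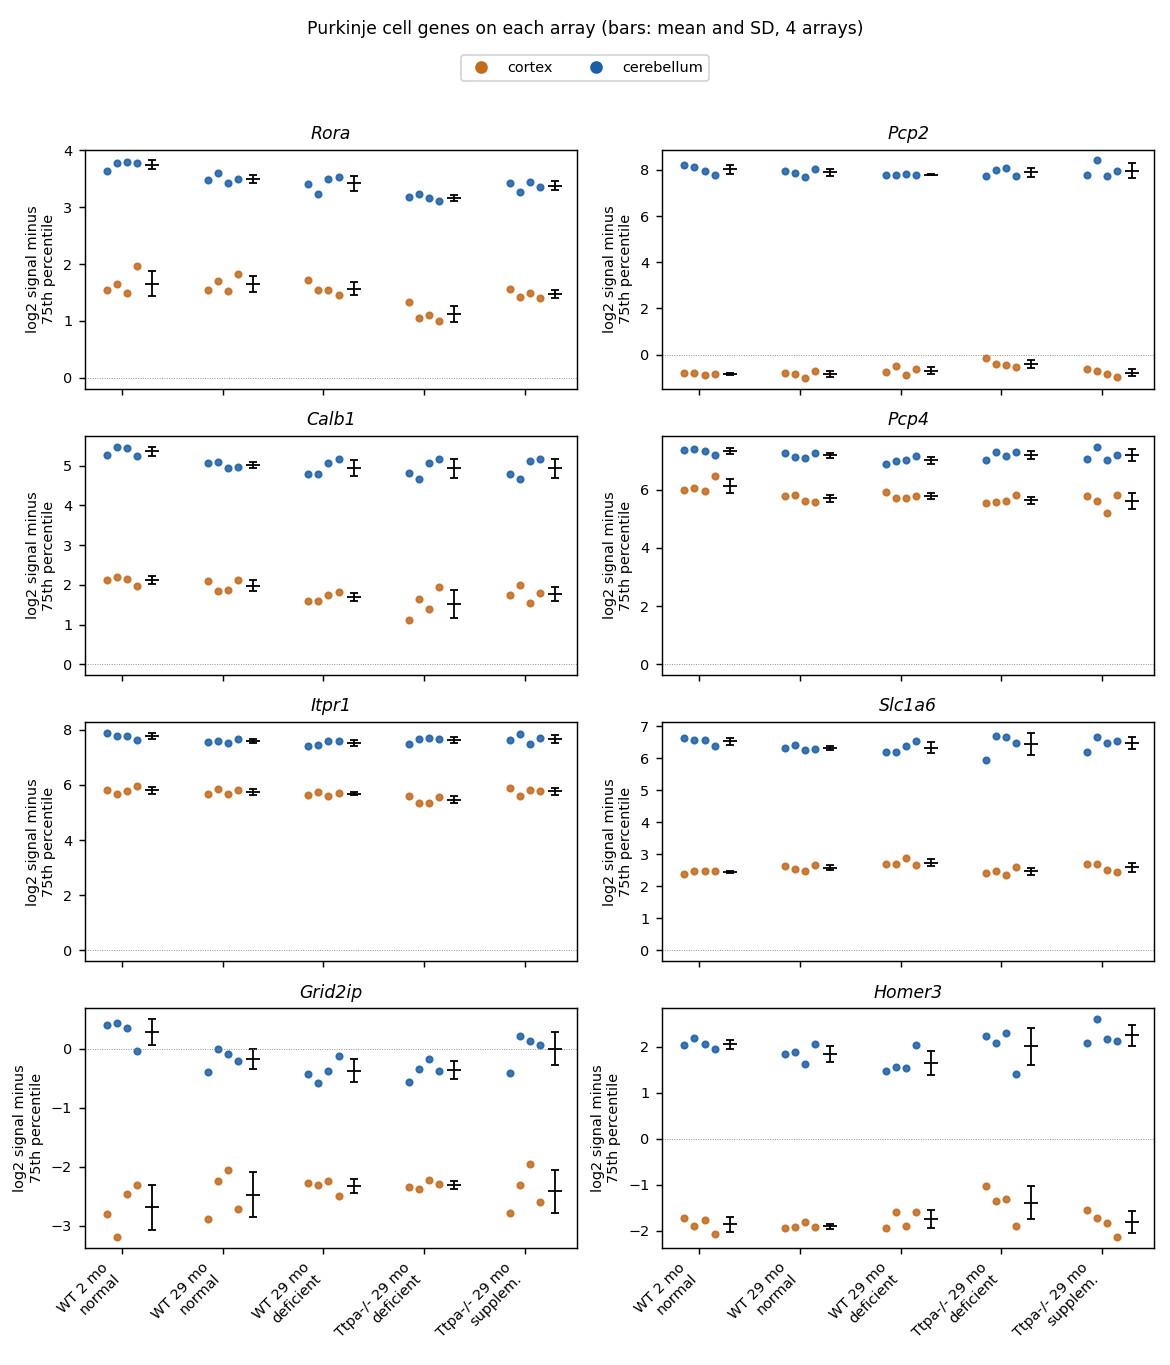
The 8 members on each of the 40 arrays, with the log2 signal minus the array's 75th percentile on the y axis and the 5 conditions on the x axis (orange, cortex; blue, cerebellum; bars, mean and SD of 4 arrays). In every panel the 20 cerebellar values lie above the 20 cortical values, by a small margin for Pcp4 (6.88 to 7.48 against 5.22 to 6.47) and a wide one for Pcp2 (7.71 to 8.41 against -1.01 to -0.14).

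All 8 members were higher in cerebellum than in cortex, and the size of the difference varied widely among them. The first question was how well each gene separated the regions in wild-type mice on the normal diet. At 2 months Pcp2 was at 8.20, 8.11, 7.96 and 7.80 in the cerebellum and at -0.81, -0.80, -0.89 and -0.85 in the cortex. The difference was 8.86 (SE 0.12), or 464-fold, and the groups were far apart. Slc1a6 was 16.9-fold higher (log2 4.08, SE 0.11), Homer3 15.1-fold (3.91, SE 0.17) and Calb1 9.50-fold (3.25, SE 0.14). Grid2ip was 7.83-fold higher (2.97, SE 0.18), Rora 4.24-fold (2.08, SE 0.09) and Itpr1 3.88-fold (1.96, SE 0.08). Pcp4 showed the smallest difference, 2.30-fold (1.20, SE 0.12), with 5.97 to 6.47 in cortex and 7.20 to 7.41 in cerebellum. Pcp4 and Itpr1 are also expressed by cortical neurons, and the cortical signals of all 8 members were well above background on every array. All 8 passed the test, which was an adjusted p under 0.05 in limma across 30203 probes together with more than 1.5-fold, with the least significant adjusted p at 1.36e-10. Of all probes tested, 19.3% passed it in the same direction. The median difference of the 8 members was 3.11, against -0.02 over all probes.

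At 29 months all 8 passed again, against 17.8% of all probes higher in cerebellum. Pcp2 was 427-fold higher (8.74), Homer3 13.4-fold (3.75), Slc1a6 13.3-fold (3.74) and Calb1 8.25-fold (3.04). Grid2ip was 4.90-fold higher (2.29), Rora 3.59-fold (1.85), Itpr1 3.55-fold (1.83) and Pcp4 2.79-fold (1.48). The change of the regional difference with age was tested by an interaction term, and none of the 8 reached an adjusted p under 0.05, against 1.83% of all probes, while 2 of 8 had an unadjusted p under 0.05, against 11.9%. Grid2ip came nearest, with an ageing effect lower by 0.68 in cerebellum than in cortex (SE 0.26, unadjusted p = 0.0129, limma adjusted p = 0.236).

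**Figure D2:**
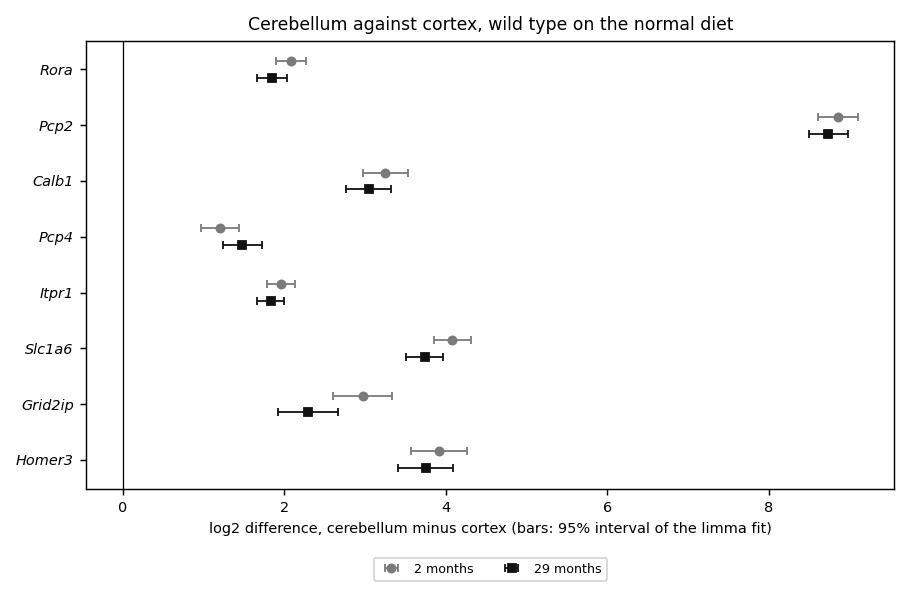
Difference between cerebellum and cortex in wild-type mice on the normal diet, on a log2 scale, for each member at 2 months (grey circles) and 29 months (black squares), with 95% intervals of the limma fit. Every interval lies above 0, from 1.20 for Pcp4 to 8.86 for Pcp2 at 2 months, and the intervals at the 2 ages overlap for 8 of the 8 members.

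Ageing on the normal diet left none of the 8 members past the test in the cerebellum. The mean of every member was lower at 29 than at 2 months, by 0.12 to 0.46 on the log2 scale, and 52.2% of all probes were also below 0. Calb1 was at 5.26, 5.48, 5.45 and 5.25 in young and at 5.08, 5.09, 4.95 and 4.98 in aged cerebellum, and the groups did not overlap. Its difference was -0.34 (SE 0.14, limma adjusted p = 0.12), and its other probe gave -0.44 (adjusted p = 0.0701). Rora was at 3.62, 3.78, 3.79 and 3.78 in young and at 3.48, 3.59, 3.42 and 3.49 in aged cerebellum, also without overlap. The difference was -0.25 (SE 0.09, limma adjusted p = 0.0764). Groups that did not overlap, with the aged mice lower, were found for 2 of 8 members and for 9.24% of all probes. For the comparisons below this share is not given, and a lack of overlap there only describes the arrays. Grid2ip had the largest difference, -0.46 (SE 0.18, adjusted p = 0.105), from 0.39, 0.43, 0.35 and -0.04 to -0.39, 0.00, -0.10 and -0.22, and the lowest young value lay within the aged range. Slc1a6 differed by -0.22 (adjusted p = 0.258), Homer3 by -0.21 (0.549), Itpr1 by -0.18 (0.18), Pcp4 by -0.15 (0.537) and Pcp2 by -0.12 (0.635).

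Thus 0 of 8 members were called, against 5.03% of all probes, and 0 of 8 reached an adjusted p under 0.05 at any fold, against 11.0%. An unadjusted p under 0.05 was found for 4 of 8, against 23.0%. Calb1 and Rora did reach an adjusted p under 0.05 with array weights (0.028 and 0.015) and by the methods' t-test after Benjamini-Hochberg adjustment (0.0426 and 0.0468). With normexp background correction Grid2ip (0.0141) and Rora (0.0483) did so, and with quantile normalization Slc1a6 (0.0484), all under 1.5-fold. The 95% intervals of Grid2ip (-0.83 to -0.09) and Calb1 (-0.61 to -0.06) reached past a loss of 1.5-fold, which is 0.585 on the log2 scale, and those of the other 6 did not. The median difference of the 8 was -0.21, against -0.01 over all probes. Other cell types moved in the same comparison. Among 15 granule cell genes, 6 were lower at an adjusted p under 0.05 and 0 were called, with a median of -0.41. Of 7 microglial genes 6 were called higher, and of 4 blood genes 3. The summed linear signal of 9 choroid plexus genes ranged from 8.92 to 249.7 times the 75th percentile in young and from 6.30 to 7.26 in aged cerebellum. Without the 2 young arrays with the most Ttr, an alternative chosen after the data were seen, Pcp2 was at 0.01, Calb1 at -0.33, Rora at -0.29 and Grid2ip at -0.33, and none passed. The part of these cells in the members' differences was not tested further.

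**Figure D3:**
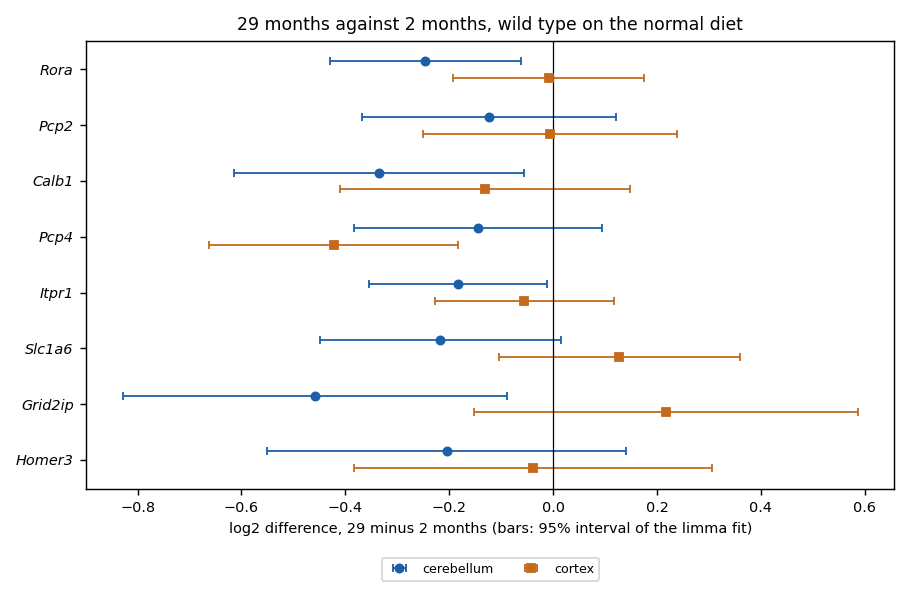
Difference between 29 and 2 months in wild-type mice on the normal diet, on a log2 scale, for each member in cerebellum (blue circles) and cortex (orange squares), with unadjusted 95% intervals of the limma fit. The 8 cerebellar means lie between -0.46 and -0.12, and the cortical mean farthest from 0 is that of Pcp4 at -0.42.

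In the cortex, Pcp4 was the only member with an adjusted p under 0.05 on ageing. It was at 5.99, 6.07, 5.97 and 6.47 at 2 months and at 5.80, 5.82, 5.61 and 5.59 at 29 months, without overlap. The difference was -0.42 (1.34-fold lower, SE 0.12, limma adjusted p = 0.0326), which is under the 1.5-fold threshold, so that 0 of 8 members were called against 2.09% of all probes. An adjusted p under 0.05 in the same direction was found for 1.38% of all probes. Pcp4 is also a gene of striatal neurons, and 3 of 10 striatal markers were called lower in the same comparison, with a median of -0.67 over the list. The part of striatal tissue in the Pcp4 value was not tested. Its adjusted p rose to 0.0586 without young replicate 2 and to 0.175 without young replicate 4. It rose to 0.103 without aged replicate 3 and to 0.0908 without aged replicate 4. The adjusted p was also past 0.05 with no filter on dim probes (0.057) and with the compared groups fitted alone (0.175). By the methods' t-test after Benjamini-Hochberg adjustment it was 0.161. Slc1a6 was at 2.39, 2.47, 2.47 and 2.47 in young and at 2.63, 2.53, 2.49 and 2.66 in aged cortex, apart but by only 0.13 (adjusted p = 0.696). The interaction of age and region left none of the 8 past the test.

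Vitamin E deficiency in wild-type mice was compared with the normal diet at 29 months. None of the 8 members reached an adjusted p under 0.05 in either region. In the cerebellum the differences ran from -0.20 (Homer3, adjusted p = 0.52) to 0.01 (Slc1a6). Of all probes, 4.58% reached that p there and 1.28% were called. In the cortex the differences ran from -0.29 to 0.16, with 0.340% of all probes at that p and 0.223% called. Calb1 in the cortex was at 2.09, 1.83, 1.88 and 2.12 on the normal and at 1.60, 1.60, 1.75 and 1.82 on the deficient diet. These groups did not overlap, and the difference of -0.29 (SE 0.14) had a limma adjusted p of 0.308. An unadjusted p under 0.05 was found for 0 of 8 members in cerebellum, against 21.0% of all probes, and for 1 of 8 in cortex, against 15.6%. The difference between regions in this diet effect passed for none of the 8, at an adjusted or an unadjusted p under 0.05, and for 0.0126% and 14.4% of all probes respectively.

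Loss of Ttpa together with the deficient diet was compared with wild-type mice on the normal diet at 29 months. Rora was lower in both regions. In the cerebellum it was at 3.48, 3.59, 3.42 and 3.49 in wild-type and at 3.18, 3.22, 3.15 and 3.10 in Ttpa-/- mice. The difference was -0.33 (1.26-fold lower, SE 0.09, limma adjusted p = 0.0144). In the cortex it was at 1.54, 1.71, 1.52 and 1.83 in wild-type and at 1.33, 1.05, 1.10 and 1.0 in Ttpa-/- mice. Here the difference was -0.53 (1.44-fold lower, SE 0.09, limma adjusted p = 0.00023). The groups did not overlap in either region, but the share of all probes without overlap is not given here. The difference between the regions did not pass (0.20, adjusted p = 0.369). The exact permutation test of 4 against 4 arrays gave 0.0286 for both, the smallest p it can give with its 70 splits.

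The remaining cerebellar members did not pass the test. Pcp2 differed by -0.00 (95% interval -0.25 to 0.24), Pcp4 by 0.01 (-0.23 to 0.25) and Itpr1 by 0.05 (-0.13 to 0.22). Calb1 differed by -0.09 (-0.37 to 0.19), Slc1a6 by 0.13 (-0.10 to 0.36), Homer3 by 0.16 (-0.19 to 0.50) and Grid2ip by -0.19 (-0.56 to 0.18). These intervals are those of the brighter probe with all arrays. Without the replicates 4 of both Ttpa-/- deficient groups, chosen after the data were seen, Homer3 was at 0.36 (adjusted p = 0.104), and without Ttpa-/- cerebellar replicate 1 Slc1a6 was at 0.29 (adjusted p = 0.0488). With all arrays Rora alone reached an adjusted p under 0.05, 1 of 8 members against 13.2% of all probes, and 0 of 8 were called against 4.46%. Without replicate 2 of the wild-type group, the Rora difference was -0.30 with an adjusted p of 0.051. Markers of other cells moved here too. All 6 oligodendrocyte genes were lower, with a median of -0.49 and 2 called, and 1 gene was called lower among 6 astrocyte, 7 microglial and 6 Bergmann glia genes each. Their part in the Rora value was not tested.

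In the cortex 5 of 8 members reached an adjusted p under 0.05, against 19.0% of all probes, and 0 of 8 were called, against 4.75%. Beside Rora, Pcp2 was at -0.80, -0.85, -1.01 and -0.71 in wild-type and higher, at -0.14, -0.40, -0.47 and -0.54, in Ttpa-/- mice. The groups did not overlap, and the difference was 0.45 (1.37-fold, SE 0.12, limma adjusted p = 0.00823). Itpr1 was at 5.66, 5.87, 5.67 and 5.81 in wild-type and at 5.59, 5.34, 5.36 and 5.55 in Ttpa-/- mice, apart by -0.29 (SE 0.08, adjusted p = 0.0144). Calb1 was at 2.09, 1.83, 1.88 and 2.12 and at 1.13, 1.63, 1.39 and 1.94, a difference of -0.46 (SE 0.14, adjusted p = 0.0182) with replicate 4 inside the wild-type range. Homer3 was at -1.94, -1.93, -1.82 and -1.92 and at -1.03, -1.35, -1.30 and -1.90, a difference of 0.51 (SE 0.17, adjusted p = 0.0328), again with replicate 4 inside the wild-type range. Slc1a6 (-0.11), Pcp4 (-0.07) and Grid2ip (0.17) did not pass. At an adjusted p under 0.05 the difference between regions passed for none of the 8, against 7.04% of all probes, and at an unadjusted one for 2, against 22.6%. These were Itpr1 (0.34, adjusted p = 0.0773) and Pcp2 (-0.46, adjusted p = 0.0979). The Itpr1 value had an adjusted p of 0.0437 without Ttpa-/- cerebellar replicate 1 and 0.0487 without Ttpa-/- cortical replicate 4.

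Some of these cortical values rested on single arrays. The Pcp2 adjusted p was 0.0557 without Ttpa-/- replicate 1. That of Itpr1 was 0.0611 without wild-type replicate 2, 0.0607 without Ttpa-/- replicate 2 and 0.059 without Ttpa-/- replicate 3. That of Calb1 rose to at most 0.126 and was past 0.05 without wild-type replicate 1 or 4 or Ttpa-/- replicate 1 or 3. That of Homer3 rose to at most 0.164 and was past 0.05 without wild-type replicate 1, 2 or 4 or Ttpa-/- replicate 1, 2 or 3. Without replicate 4 of the Ttpa-/- deficient groups, an alternative chosen after the data were seen, Calb1 (-0.60) and Homer3 (0.68) were past 1.5-fold and were called. The adjusted p of Rora stayed under 0.05 without any one array. With arrays scaled on their median rather than on their 75th percentile, the 11 member differences that had reached an adjusted p under 0.05 outside the regional comparisons all lost it, with adjusted p values from 0.0565 to 0.5 and each difference in the same direction.

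Markers of other cells moved in the same cortical comparison. Choroid plexus genes had a median of 0.65, with 8 of 8 tested above 0 and 0 called. Striatal genes had a median of 0.44, with 2 of 10 called higher. Oligodendrocyte genes had a median of -0.51, and astrocyte genes one of -0.35 with 3 of 6 lower at an adjusted p under 0.05. Their part in the members' values was not tested.

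**Figure D4:**
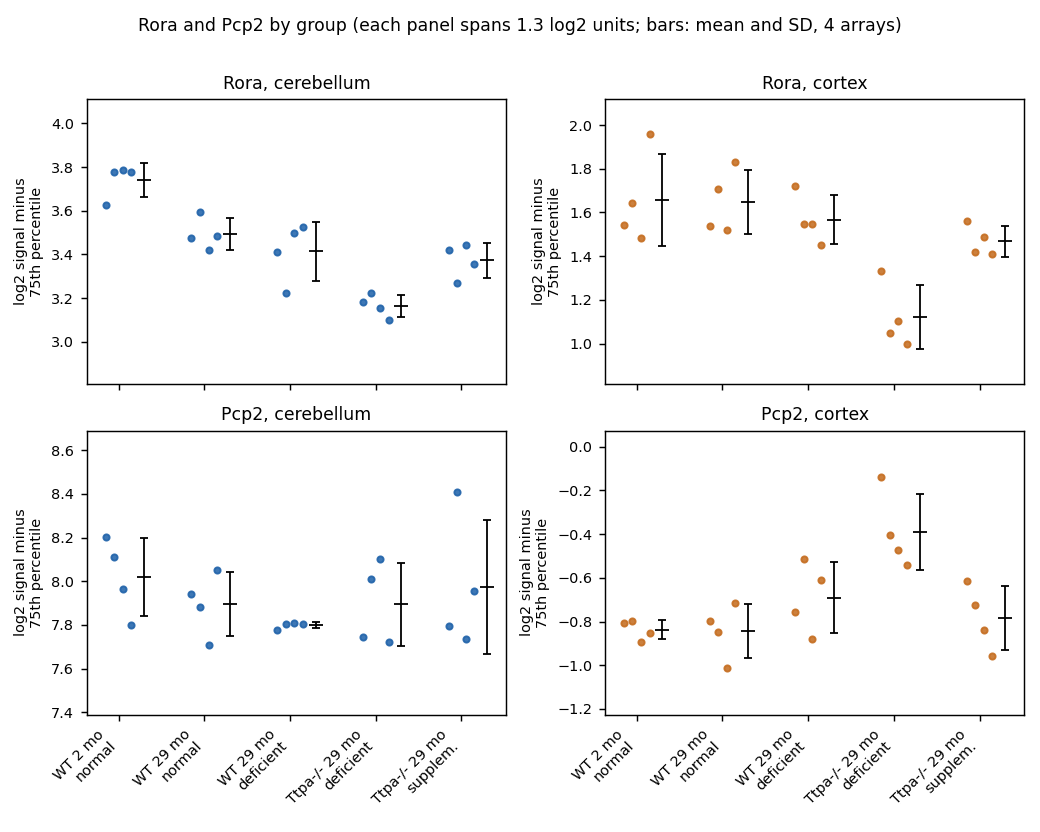
Rora (top) and Pcp2 (bottom) in cerebellum (left) and cortex (right), with the log2 signal minus the array's 75th percentile on the y axis, the 5 conditions on the x axis, 1 point per array, and bars for the mean and SD of 4 arrays. The Ttpa-/- deficient group lies at the bottom of both Rora panels (3.10 to 3.22 and 1.0 to 1.33), while Pcp2 in the same mice is at the top of the cortical panel (-0.54 to -0.14) and in the middle of the cerebellar one.

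Supplemented Ttpa-/- mice were then set against wild-type mice given the normal diet, and none of the 8 members reached an adjusted p under 0.05 in either region. Of all probes, 14.7% did so in the cerebellum and 4.91% were called, against 0.212% and 0.0920% in the cortex. An unadjusted p under 0.05 was found for 1 of 8 members in cerebellum, Homer3, against 28.5% of all probes, and for 0 of 8 in cortex, against 8.51%. Rora was at 3.42, 3.27, 3.44 and 3.36 in the cerebellum, a difference of -0.12 (SE 0.09, adjusted p = 0.402). In the cortex it was at 1.56, 1.42, 1.49 and 1.41, a difference of -0.18 (SE 0.09, adjusted p = 0.603). Both Rora means lay between those of wild-type and of deficient Ttpa-/- mice, with values overlapping the wild-type group in each region. Homer3 in the cerebellum was at 2.09, 2.59, 2.17 and 2.13, all above the wild-type values of 1.83, 1.87, 1.63 and 2.05, with a difference of 0.40 (SE 0.17, adjusted p = 0.111).

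Within Ttpa-/- mice the deficient diet was compared with the supplemented one. In the cerebellum, on 1 slide, none of the 8 members reached an adjusted p under 0.05, against 0.767% of all probes, and 0.343% of probes were called. Rora was the 1 member with an unadjusted p under 0.05, against 11.6% of all probes, and its groups did not overlap, with a difference of -0.21 (SE 0.09, limma adjusted p = 0.342). In the cortex 0 of 8 members were called, against 3.31% of all probes, and 3 of 8 reached an adjusted p under 0.05, against 14.1%. Rora was lower on the deficient diet by -0.35 (SE 0.09, adjusted p = 0.0101), Itpr1 by -0.30 (SE 0.08, adjusted p = 0.0157), and Pcp2 was higher by 0.39 (SE 0.12, adjusted p = 0.0257). The Pcp2 value passed 0.05 without deficient replicate 1 (0.139) or supplemented replicate 3 (0.0692) or 4 (0.0886). That of Itpr1 did so without deficient replicate 2 (0.0618) or 3 (0.062) or supplemented replicate 1 (0.0524). Without replicate 4 of the deficient cortex Homer3 was at 0.59, in place of 0.42, and was called (0.0137), and Calb1 was at -0.38, in place of -0.25, with an adjusted p of 0.044. All 6 oligodendrocyte genes were lower in this cortical comparison, with a median of -0.47 and 1 called, as were all 9 choroid plexus genes, with a median of -0.43 and 0 called. Their part in the members' values was not tested.

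Between genotypes on the deficient diet, Rora in the cortex differed by -0.45 (SE 0.09, limma adjusted p = 0.00218), with 1.72, 1.55, 1.55 and 1.45 in wild-type mice and no overlap. It was 1 of 8 members at an adjusted p under 0.05, against 13.0% of all probes, and 0 of 8 were called, against 3.07%. Homer3 was at 0.36 (adjusted p = 0.155), and without Ttpa-/- replicate 4 at 0.53 (0.0294). In the cerebellum 0 of 8 were called against 4.94% of all probes, and 0 of 8 reached an adjusted p under 0.05 against 12.8%, with 2 of 8 at an unadjusted one against 28.1%. Rora differed by -0.25 (SE 0.09, adjusted p = 0.0622), and its adjusted p was 0.0316 without wild-type replicate 2. Its groups did not overlap, as in the cortex, but the share of all probes without overlap is not given here. Scaling on the array median moved every difference of this comparison by 0.18, and Rora was then at -0.07 (adjusted p = 0.796). Homer3 was at 0.36 (adjusted p = 0.159), and without Ttpa-/- replicate 4 at 0.56 (0.0228). These contrasts share groups with those above, and their values are not independent of them.

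The rest of the Purkinje cell programme was described by a list of 36 further Purkinje cell genes on the arrays and a list of 20 genes of the pathway from metabotropic glutamate receptors to inositol trisphosphate, with 8 genes on both. In young mice 27 of the 36 were called higher in cerebellum than in cortex and 1 lower, the exception being Itpka, an inositol trisphosphate kinase that forebrain neurons also express. Of the 20 pathway genes 10 were called higher in cerebellum and 4 lower, so that this list is less particular to the cerebellum. On ageing in the cerebellum 31 of the 36 were below 0, with a median of -0.24. Of these, 9 were lower at an adjusted p under 0.05, 1 of them past 1.5-fold, and 0 higher, against 4.08% of all probes lower (limma). Of the pathway genes 4 of 20 were lower at that p and 0 called, with a median of -0.27. Plcb4, a phospholipase C of this pathway, was at -0.14 (adjusted p = 0.637).

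In Ttpa-/- mice on the deficient diet against wild-type mice on the normal diet, the cerebellar medians were 0.04 for both lists, with 1 gene called, which was Car8 and is on both. Plcb4 was at 0.15 by its brightest probe and did not pass. Its other probes were at -0.05, -0.06 and -0.25, and none of them passed. Car8 encodes a carbonic anhydrase-related protein, abundant in Purkinje cells, that binds the inositol trisphosphate receptor and lowers its affinity for the ligand. It was at 4.79, 4.68, 4.59 and 4.68 in wild-type and at 1.56, 1.44, 1.77 and 3.65 in Ttpa-/- cerebellum. It fell by 2.58 on the log2 scale (SE 0.48, limma adjusted p = 0.000568), or 5.97-fold. Supplemented Ttpa-/- mice were at 1.67, 1.87, 1.76 and 1.88, a fall of 7.42-fold against the same wild-type group (SE 0.48 on the log2 scale, adjusted p = 0.000165). On the deficient diet wild-type mice were at 4.12, 4.11, 4.40 and 4.90, and the genotypes differed 4.84-fold (adjusted p = 0.00182).

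Replicate 4 of the deficient Ttpa-/- group stood between the genotypes, and the dimmer Car8 probe placed the same array apart. Without the replicates 4 of the deficient Ttpa-/- groups Car8 fell by 3.09 on the log2 scale (limma adjusted p = 8.85e-07). In the cortex Car8 was at -2.37, -2.27, -2.69 and -2.58 in wild-type and at -5.71, -4.61, -7.13 and -3.32 in deficient Ttpa-/- mice, where 2 of the 4 arrays were not well above background, and it fell by 2.71 (adjusted p = 0.000306). Over the alternative settings this difference ranged from -3.34 to -1.02, and its adjusted p was 0.0562 with the compared groups fitted alone and 0.0781 by the methods' t-test after adjustment. In supplemented Ttpa-/- cortex no array was well above background, and Car8 was at least 4.33-fold lower than in wild-type (adjusted p = 0.000338), taking the dim level at the lowest signal well above background. The Car8 probe lies at chr4:8070545-8070604 on the minus strand, 11.9 Mb from the Ttpa probe at chr4:19957856-19957915, and that of Calb1 lies 4.12 Mb from it. Alleles carried along with the targeted Ttpa locus and the loss of Ttpa itself cannot be told apart in this design. Itpr1, whose product Car8 binds, differed by 0.05 (SE 0.08, adjusted p = 0.78) in the same cerebella.

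**Figure D5:**
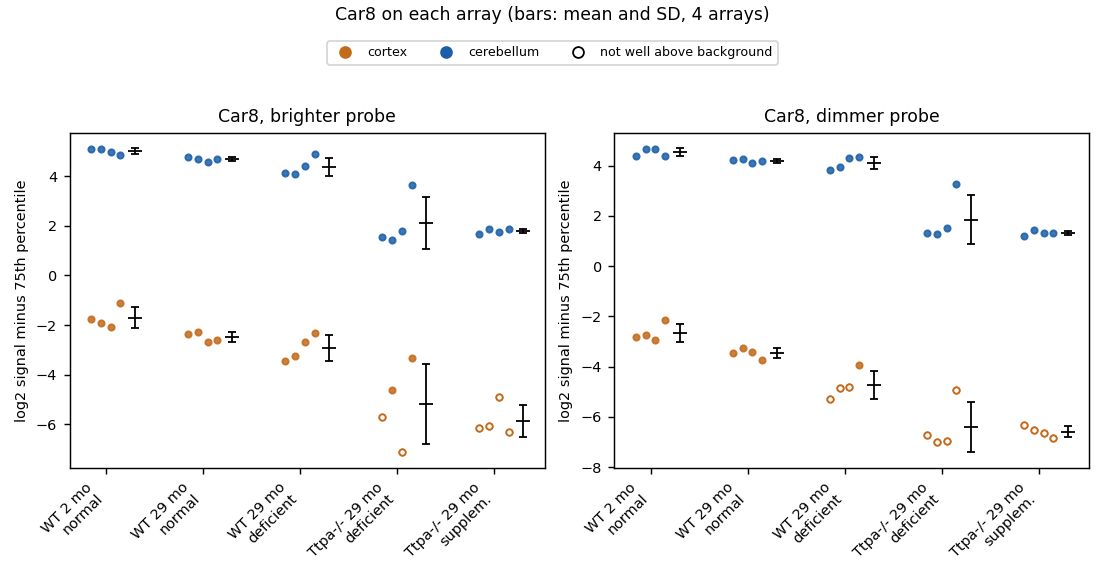
Car8 on each of the 40 arrays by its brighter (left) and dimmer (right) probe, with the log2 signal minus the array's 75th percentile on the y axis and the 5 conditions on the x axis (orange, cortex; blue, cerebellum; open points, not well above background; bars, mean and SD of 4 arrays). By the brighter probe the cerebellar values of both Ttpa-/- groups lie between 1.44 and 1.88, except replicate 4 of the deficient group at 3.65, and those of wild-type mice between 4.11 and 5.11.

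The members varied partly together from array to array. Over the 20 cerebellar arrays the 28 pairs of members had a median Pearson correlation of 0.55. The lowest was -0.01, the highest 0.89, and 27 of the 28 were above 0. After each group's mean was removed the range was -0.30 to 0.84 with a median of 0.37, and 23 were above 0. These correlations are descriptions, since the arrays share groups, slides and scaling. Among 13958 other genes well above background on all 20 cerebellar arrays, the profile most like that of Pcp2 was Pvalb (r = 0.92), the calcium buffer parvalbumin, followed by Gng13 (0.89), a G protein γ subunit. Both are also on the list of Purkinje cell genes. Itpr1 was nearest to Pcp4 (0.89) and then Mut (0.88), and Pcp4 to Erp29 (0.90) and Ndufb2 (0.90). Slc1a6 was nearest to Dao (0.88) and Atp2a3 (0.85), a calcium pump, and Grid2ip to Ppp4r4 (0.91) and Casq2 (0.91), which encodes a calcium-binding protein of the internal store. Calb1 was nearest to 2610305D13Rik (0.86) and Gdap1 (0.85), Rora to Abhd1 (0.89) and Sel1l3 (0.88), and Homer3 to Mtss1l (0.89) and Tomm40 (0.85).

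The second probes of the members gave a check within a gene. The other Calb1 probe, at chr4:15833582-15833641, was well above background on all 40 arrays and showed differences of 3.08 between regions in young mice and -0.32 (adjusted p = 0.155) in the Ttpa-/- deficient cortex, where the brighter probe had passed. The other Homer3 probe, at chr8:72810201-72810260, was well above background on all 20 cerebellar and 0 of 20 cortical arrays, so its regional difference is only a bound and is not given. In the wild-type deficient cerebellum the Homer3 probes differed in sign, -0.20 for the brighter and 0.59 (adjusted p = 0.226) for the dimmer one, and neither passed. In the Ttpa-/- deficient cerebellum they gave 0.16 and 0.62 (adjusted p = 0.145), and neither passed. Between genotypes on the deficient diet the brighter probe was at 0.36. The dimmer probe had cerebellar means of -3.24 in Ttpa-/- and -3.27 in wild-type mice there.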

How the data were processed

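Per the labels and file headers, RNA of cortex and cerebellum was hybridised in one colour to Agilent arrays, and the deposited scanner files hold the processed signal as a background-subtracted linear intensity per spot, with a flag for spots well above background. The software version is 10.7.3.1 in the headers and 10.1.1.1 in the submitters' processing notes. The authors also deposited a table of log2 values, which matched the scanner signals scaled to the 75th percentile and centred on each gene (median absolute difference 0.00085), so that its levels are relative. Control spots and spots flagged as outliers were left out, and the log2 intensities of the remaining spots of a probe were averaged. A further 92 probes were dropped because no unflagged spot remained on at least 1 array. The log2 intensities were then scaled on each array's 75th percentile. The 10 groups were fitted together with limma 3.58.1 in R 4.3.3. Benjamini-Hochberg adjustment ran over probes flagged above background on every array of either compared group, and a gene was called at an adjusted p under 0.05 and over 1.5-fold. The brightest probe stood for a gene.

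All 8 members were named whatever their values, with the 2 nearest profiles of each, and from the lists those called in the cerebellum on ageing or in Ttpa-/- deficient mice, plus a few further genes, of which Car8 and Plcb4 are given. Some genes under this rule are not reported here. The members and lists were chosen with earlier results of these data known. The mice behind replicate numbers are not stated, so the main fit had no pairing. Deviations of same-numbered arrays correlated above 0.1 for every pair in only 1 comparison, the diets of Ttpa-/- cortex (0.102 to 0.45), where the blocked fit changed no call. The mean was 0.246 there, 0.25 for ageing in cortex and 0.336 for the diets of Ttpa-/- cerebellum (-0.0205 to 0.639). In deficient Ttpa-/- mice each of the 4 cortical arrays correlated best with the cerebellar array of its own number. Alternatives were other scalings and backgrounds, no filter on dim probes, the compared groups alone, array weights, the methods' t-test, single arrays left out and a replicate block. Fold changes on arrays understate differences near background. The limma p-values of the main fit rest on the spread within groups of 4 mice, pooled over all 10 groups and both regions.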

Additional observations from a re-analysis of the deposited data

Results flagged for a closer look

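Among 80 sets of 4 arrays (8 members in 10 groups), 4 held an array far from the other 3, about as many as the 1 in 20 that chance gives for this test. The gap of that array to its nearest neighbour is given as a share of the range of its group. Slc1a6 in young wild-type cortex was at 2.39 in replicate 1 and at 2.47 in the other 3 (share 0.9198). Rora in young wild-type cerebellum was at 3.62 in replicate 1 against 3.78 and above (0.9359), and this low value lies nearest to the aged group. Homer3 was flagged in the cerebellum of wild-type deficient mice, where replicate 4 was at 2.03 and the next at 1.56 (0.834). It was flagged again in the cerebellum of supplemented Ttpa-/- mice, where replicate 2 was at 2.59 and the next at 2.17 (0.8437).

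Car8 was flagged in a pair of groups. In the cerebellum of deficient Ttpa-/- mice replicate 4 was at 3.65 and the next at 1.77 (0.8482). The same replicate number was the highest of its group in the cortex, at -3.32, although the labels do not say whether both came from 1 mouse. In the cortex of supplemented Ttpa-/- mice replicate 3 was at -4.90 and the next at -6.08 (0.8397), but none of the 4 arrays was well above background there.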

How the results depend on the processing

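The number of members called was recomputed under 368 alternatives over 17 comparisons, and 358 of these left it as reported. Without the fold threshold, the counts at an adjusted p under 0.05 were 1 for ageing in cortex, 1 and 5 for deficient Ttpa-/- against wild-type cerebellum and cortex, 3 for diet in Ttpa-/- cortex and 1 for genotype in deficient cortex, in place of 0. With single arrays left out the counts ranged from 0 to 2 for deficient Ttpa-/- against wild-type cortex and from 0 to 1 for diet in Ttpa-/- cortex. Without replicate 4 of the deficient Ttpa-/- groups they were 2 and 1. The 8 members called between regions remained called in all settings. Of 27 differences with an adjusted p under 0.05, none changed sign in 504 refits, while among 109 others 117 of 2168 refits changed sign, all for differences of at most 0.22. Median scaling moved every difference of a comparison by a constant of -0.27 to 0.18. With the compared groups fitted alone, the adjusted p of Rora was 0.0504 in deficient Ttpa-/- against wild-type cerebellum, 0.0866 for diet in Ttpa-/- cortex and 0.0935 for genotype in deficient cortex, and it stayed under 0.05 in deficient Ttpa-/- against wild-type cortex. With a replicate block the counts of calls were 8 in both regional comparisons and 0 elsewhere, as reported, and the adjusted p of Rora was 0.0171 in cerebellum and 0.000312 in cortex. The methods' t-test, unadjusted or adjusted, called the same number of members in each comparison it could be run on. The Car8 adjusted p in deficient Ttpa-/- against wild-type cerebellum was 0.0544 by the methods' t-test, and for genotype in deficient cerebellum it was 0.0625 with the groups alone and 0.11 by that test. For supplemented Ttpa-/- against wild-type cortex it was 0.0516 with normexp, 0.0958 with the groups alone and 0.147 by that test. The same test gave Rora 0.0713 for diet in Ttpa-/- cortex and 0.073 for genotype in deficient cortex. The Car8 adjusted p in supplemented Ttpa-/- against wild-type cerebellum stayed under 0.05 in the 18 settings run. A slide block could not be fitted, since each group lies on 1 slide.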
